A study of Mus musculus with 10 samples.

Results

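The 10 genes described here belong to the ATF4 axis and to serine synthesis: the transcription factor genes Atf4, Atf5 and Ddit3, the pseudokinase gene Trib3, the asparagine synthetase gene Asns, the serine pathway genes Psat1 and Phgdh, the mitochondrial one-carbon genes Shmt2 and Mthfd2, and the secreted factor gene Gdf15. They were chosen by name, and all 10 were found among the 47729 genes of the deposited count table and passed the filter on low counts. Total RNA was sequenced from forelimb buds of mouse embryos at stage E11.5-E12 (embryonic days), 5 control and 5 knockout libraries from litters A to D. The somite stages were 51, 51, 50, 49 and 50 in controls 1 to 5 and 51, 49, 50, 51 and 49 in knockouts 1 to 5. In litters C and D the control and the knockout thus differed in somite stage. All 5 knockout embryos were labelled Prx1Cre_+-Cxxc1fl_fl, that is, with Cre driven by a Prx1 enhancer that is active in limb bud mesenchyme and with floxed Cxxc1 on both alleles. Control 1 was labelled Prx1Cre_+-Cxxc1fl_wt, controls 2 and 4 CreWT-Cxxc1fl_WT, control 3 CreWT-Cxxc1fl_fl and control 5 Prx1Cre?-Cxxc1fl_fl, with a question mark at its Cre. Every embryo, controls included, therefore carried at least 1 floxed allele, and the buds hold cells such as ectoderm, endothelium and blood that the Cre does not reach. The CXXC1 protein recognises unmethylated CpG and is a subunit of the SET1 histone methyltransferases.

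Cells under nutrient, redox or protein-folding stress phosphorylate the translation factor eIF2, which lowers protein synthesis as a whole and raises translation of the Atf4 mRNA through its upstream reading frames. The ATF4 protein then binds with C/EBP partners to genes for amino acid uptake, amino acid synthesis and tRNA charging, among them Asns, Psat1, Phgdh, Shmt2 and Mthfd2, and to Atf5, Ddit3 and Trib3, which extend or limit the response. PHGDH, PSAT1 and PSPH make serine from a glycolytic intermediate, and SHMT2 and MTHFD2 pass its carbon to mitochondrial folate for purine and formate supply, a route in demand in fast growing embryonic tissue. GDF15 is a secreted stress factor that both ATF4 and p53 are known to induce. Because ATF4 is controlled at translation, its mRNA level is not a measure of the protein.

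The library totals ran from 33274911 to 49880815 counts. Levels are given as CPM, counts scaled to library size. Cxxc1 itself stood at 96.7 ± 6.88 CPM in the 5 controls and fell to 75.2 ± 1.23 CPM (SD, n = 5) in the knockouts, with no overlap. The counts are per gene, so the deleted part of Cxxc1 cannot be read separately. Of 12 limb mesenchyme markers all were detected, while the hindlimb genes Pitx1 and Tbx4 were at 1.253 ± 0.427 and 11.4 ± 1.04 CPM in controls (SD, n = 5), far below the forelimb gene Tbx5 at 187.6 ± 20.7 CPM. Xist was high in control 1 and knockout 3 only, at 4114 and 2290 CPM. The labels give no sex.

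Of the 10 genes, 4 were higher and 2 lower in the knockout, and 4 were not called by the quasi-likelihood test of edgeR (Benjamini-Hochberg adjusted p, threshold 0.05). Gdf15 was near 0 in controls and present in all knockouts. Mthfd2 rose by 23.6%, Psat1 by 23.5% and Shmt2 by 15.9%, while Atf4 fell by 14.8% and Atf5 by 13.5%. Over all 20562 genes tested 35.2% were called, 18.1% higher and 17.1% lower, beside 6 of these 10. The groups did not overlap for 2 of the 10 genes in the higher direction and 2 in the lower, beside 25.3% of all genes tested. The median size of the log2 fold change, whatever its sign, was 0.22 over the 10 genes and 0.23 over all genes, so the typical change of these genes was about that of any gene. In bulk RNA, fewer cells of a type and less RNA per cell cannot be told apart, and this holds for each change given here.

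**Figure D1:**
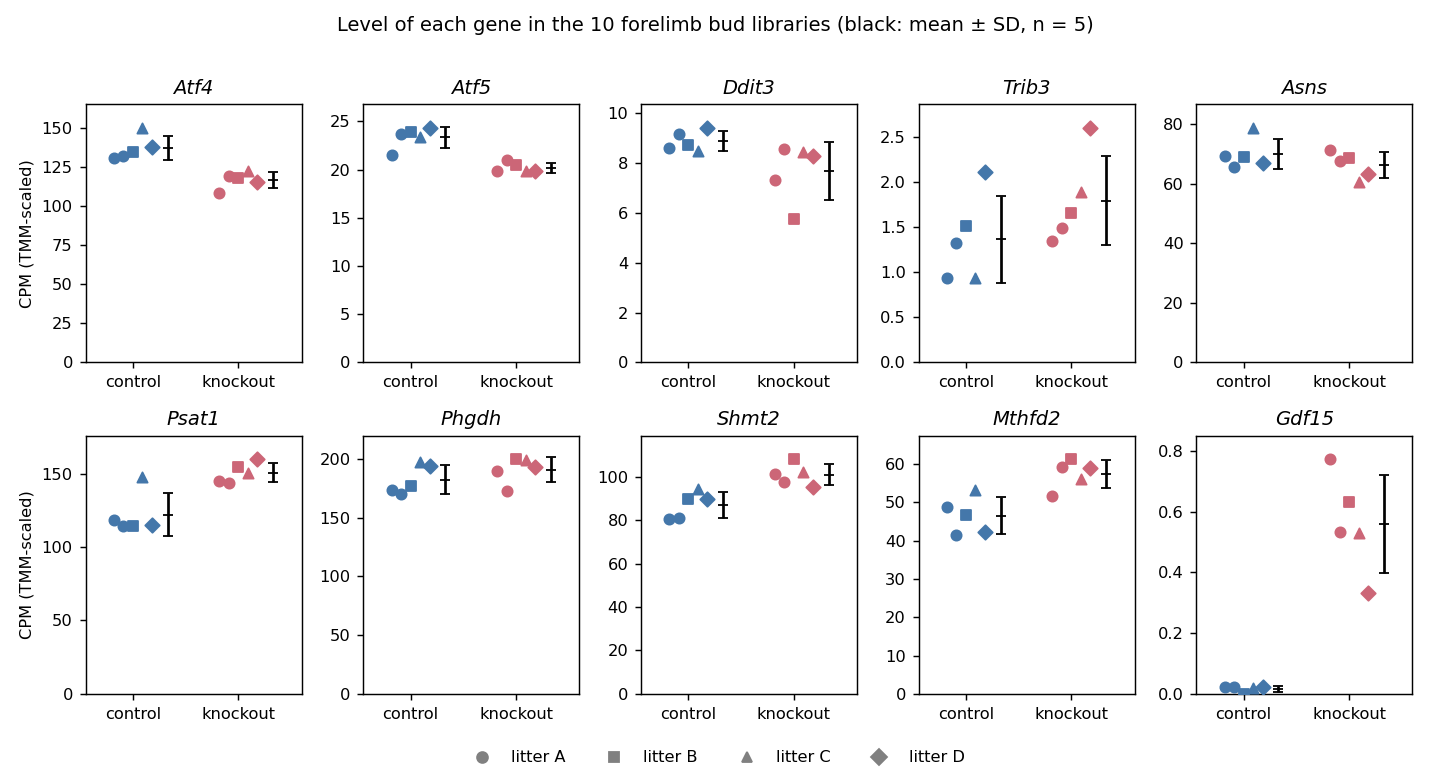
CPM of each gene (y axis, linear from 0, one scale per gene) in control and knockout libraries (x axis). Each point is 1 library with its litter as the symbol, and black marks give the mean ± SD of 5 libraries. Atf4, Atf5, Shmt2 and Gdf15 show groups that do not overlap, control 4 (litter C) stands above the other controls for Psat1 and Asns, and Trib3 overlaps widely.

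Among the transcription factors, Atf4, the central activator of the response (ENSMUSG00000042406, chromosome 15, 80255184 to 80257541, plus strand, GRCm38), was at 130.5, 132.0, 134.4, 149.9 and 137.5 CPM in controls 1 to 5 and at 108.2, 119.3, 117.6, 122.5 and 115.4 CPM in knockouts 1 to 5. Every knockout library lay below every control. The mean went from 136.9 ± 7.77 to 116.6 ± 5.35 CPM (SD, n = 5 per group). The fitted log2 fold change was -0.23 (SE 0.05, edgeR adjusted p = 0.00274), and an exact permutation test of the CPM, two-sided, gave p = 0.00794, the least possible with 5 against 5. Within litters A, B, C and D the difference was -0.21, -0.19, -0.29 and -0.25 on the log2 scale, so the fall was seen in all 4. Limb mesenchyme markers moved with it: 6 of 12 fell, none was at 0, and their summed level ran from 2832 to 3057 CPM in controls and from 1725 to 2066 CPM in knockouts. Of 8 cartilage markers 7 fell, with a summed level of 589.7 to 1077 CPM in controls and 178.9 to 220.1 CPM in knockouts. Markers of several cell types outside the mesenchyme rose, where 18.1% of all genes tested were called higher. They were 8 of 10 for ectoderm (324.5 to 531.3 and 589.3 to 713.3 CPM) and 7 of 8 for erythroid cells (2617 to 3106 and 3208 to 6949 CPM). They were also 6 of 8 for endothelium (249.8 to 296.7 and 315.3 to 360.7 CPM) and 4 of 6 for muscle precursors (60.5 to 80.3 and 60.9 to 134.3 CPM). Of 5 Schwann and neural crest markers 0 rose and 1 fell (48.74 to 56.52 and 48.63 to 54.83 CPM). None of these markers was at 0. The part of these shifts in the levels of the 10 genes was not tested.

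Atf5, a relative of Atf4 that is also controlled at translation (chromosome 7, 44812256 to 44816658, minus strand), also fell. It was at 21.5, 23.7, 23.9, 23.4 and 24.3 CPM in controls and at 19.8, 20.96, 20.5, 19.9 and 19.8 CPM in knockouts. The groups did not overlap, although knockout 2 came within 1 CPM of control 1. The log2 fold change was -0.21 (SE 0.05, adjusted p = 0.0088), and it was negative in all 4 litters (-0.29 to -0.15). Exons of Nup62 and of Il4i1 on the opposite strand cover 4.11% of the exon bases of Atf5.

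Ddit3, which encodes CHOP, the factor that turns a prolonged response towards cell death (chromosome 10, 127290774 to 127296288, plus strand), did not pass the test. It was at 8.59, 9.17, 8.70, 8.47 and 9.40 CPM in controls and at 7.33, 8.57, 5.76, 8.43 and 8.28 CPM in knockouts. Knockout 3 was the lowest library, and knockout 2 lay inside the control range. The log2 fold change was -0.21 (SE 0.11, adjusted p = 0.171). The difference was negative in all 4 litters, from -0.59 in litter B to -0.01 in litter C. The fitted change was close in size to that of Atf5, with a wider SE. On the CPM of this gene alone, the exact two-sided permutation p was 0.0159. The annotation holds another entry named Ddit3 on the same strand, which shares 6.13% of the exon bases of this one. How counts were split between these entries was not tested. Mars, on the opposite strand, covers 3.97% of the exon bases of Ddit3.

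Trib3, a pseudokinase that binds ATF4 and CHOP and damps the response (chromosome 2, 152337422 to 152344032, minus strand), was low in all libraries. Controls held 0.942, 1.32, 1.51, 0.939 and 2.11 CPM and knockouts 1.35, 1.49, 1.66, 1.89 and 2.61 CPM, from 43 to 125 counts per library. The highest library of either group came from litter D. The log2 fold change of 0.40 had an SE of 0.26 and did not pass (adjusted p = 0.261), although the knockout was higher in all 4 litters (0.13 to 0.97). Without control 5 the log2 fold change was 0.61 (adjusted p = 0.0728), and without knockout 5 it was 0.23 (adjusted p = 0.538).

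**Figure D2:**
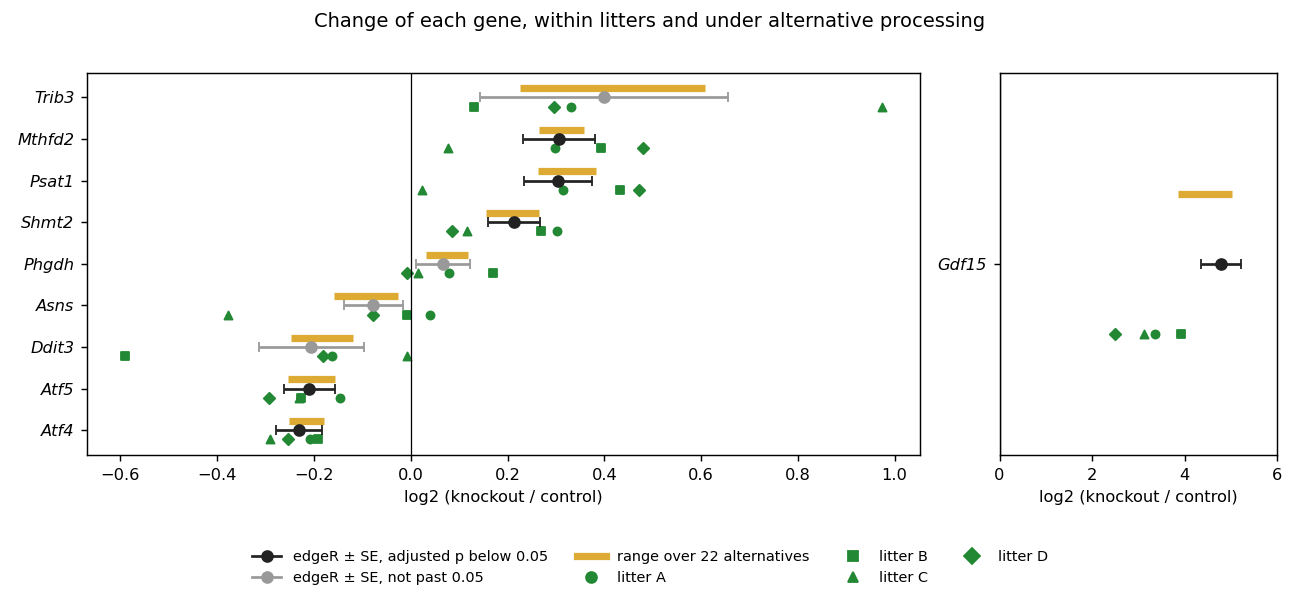
Log2 fold change of knockout over control (x axis) for each gene (y axis), with Gdf15 on an axis of its own. Points with bars are the edgeR estimates ± SE (black past an adjusted p of 0.05, grey not), yellow bars span the 22 alternative settings, and green symbols are the differences of log2 CPM (prior count 2) within each litter. Atf4, Atf5 and Ddit3 stay below 0 and Psat1, Mthfd2, Shmt2, Trib3 and Gdf15 above 0 in every litter, though Ddit3 and Trib3 were not called. Asns and Phgdh lie on both sides.

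None of the 5 enzyme genes was called lower. Asns, which makes asparagine and is a standard reporter of ATF4 activity (chromosome 6, 7675169 to 7693254, minus strand), was at 69.5, 65.7, 69.2, 78.8 and 67.0 CPM in controls and at 71.4, 67.5, 68.8, 60.6 and 63.4 CPM in knockouts. The groups overlapped, with control 4 the highest and knockout 4 the lowest library, both of litter C. The log2 fold change was -0.08 (SE 0.06, adjusted p = 0.361), and the litters ranged from -0.38 to 0.04.

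Phgdh, the first enzyme of serine synthesis (chromosome 3, 98313170 to 98339990, minus strand), was the most abundant of the 10 genes. It was at 173.2, 169.8, 177.3, 197.1 and 193.9 CPM in controls and at 190.0, 172.9, 199.5, 199.3 and 192.8 CPM in knockouts. Both groups spanned nearly the same range, and the log2 fold change of 0.07 (SE 0.06) did not pass (adjusted p = 0.397). From the SE, its 95% interval ran from -0.04 to 0.18. In the annotation 19 other genes, nearly all processed pseudogenes, are at least 90% identical to Phgdh over 200 bases or more. The 10 of them in the count table held 207 counts together over all libraries, against 83165 for Phgdh, and how reads were split among such copies is less certain.

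Psat1, the second enzyme of the pathway (chromosome 19, 15904678 to 15947337, minus strand), rose. Controls held 118.2, 114.0, 114.3, 147.8 and 115.2 CPM and knockouts 145.0, 143.7, 154.3, 150.2 and 159.7 CPM. Control 4 lay among the knockouts, and the other 4 controls lay below all of them. The log2 fold change was 0.30 (SE 0.07, adjusted p = 0.00529), and 0.38 (adjusted p = 5.81e-05) without control 4. The difference was 0.02 in litter C and 0.31 to 0.47 in the other litters. Without litter A, 3 against 3, the call was lost at nearly the same size (0.30, adjusted p = 0.0759).

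Shmt2, which splits serine into glycine and a one-carbon unit in mitochondria (chromosome 10, 127517123 to 127522444, minus strand), was at 80.4, 80.9, 89.7, 94.4 and 89.96 CPM in controls and at 101.3, 97.6, 108.0, 102.3 and 95.4 CPM in knockouts. The groups did not overlap, with control 4 and knockout 5 nearly touching. The log2 fold change was 0.21 (SE 0.05, adjusted p = 0.00902). It fell to 0.16 and lost its call without litter A (adjusted p = 0.127) and without the 2 libraries with high Xist (0.16, adjusted p = 0.0553).

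Mthfd2, the next mitochondrial folate enzyme (chromosome 6, 83305691 to 83325908, minus strand), held 48.7, 41.4, 46.6, 53.2 and 42.3 CPM in controls and 51.6, 59.2, 61.2, 56.1 and 59.1 CPM in knockouts. Only control 4 and knockout 1 crossed. The log2 fold change was 0.31 (SE 0.07, adjusted p = 0.00656), with 0.08 in litter C and 0.30 to 0.48 in the others.

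Atf4 and these enzymes were also compared by ratios taken within a library, which no scaling factor touches. These ratios were chosen after the values had been seen and are a description. Psat1 over Atf4, in counts, was 0.906, 0.864, 0.851, 0.986 and 0.838 in controls and 1.34, 1.21, 1.31, 1.23 and 1.38 in knockouts. Shmt2 over Atf4 ran from 0.613 to 0.668 in controls and from 0.819 to 0.936 in knockouts, and Mthfd2 over Atf4 from 0.308 to 0.373 and from 0.459 to 0.521. None of the 3 ratios overlapped between the groups. For Shmt2 this had to follow, because every knockout lay above every control for Shmt2 and below every control for Atf4. Phgdh over Atf4 did not overlap either, at 1.287 to 1.41 in controls and 1.45 to 1.756 in knockouts, although Phgdh was not called. Psat1 over Phgdh and Psat1 over Asns were also apart. How often the ratio of another gene to Atf4 separates the groups was not tested. Such ratios show that the genes changed unequally, not which of them changed.

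Gdf15, a secreted member of the TGF-beta family (ENSMUSG00000038508, chromosome 8, 70629393 to 70632456, minus strand), was at or near 0 in controls and present in every knockout. Controls held 1, 1, 0, 1 and 1 counts and knockouts 31, 28, 21, 23 and 16 counts. The limit that a count of 0 allows (3 counts) was between 0.0573 and 0.0905 CPM, depending on library depth, and all control values lay under those limits. Knockouts were at 0.773, 0.535, 0.634, 0.530 and 0.334 CPM, the highest in knockout 1 and the lowest in knockout 5. Summed over libraries, 119 counts against 4 gave a ratio of 31.5, with an exact 95% counting interval of 12.0 to 117.6. The fitted log2 fold change was 4.79 (SE 0.43, adjusted p = 6.14e-06), a value that depends on the prior count, and was the 21st largest rise of the 20562 genes tested. It was 3.85 on log2 of the deposited normalized values plus 1. Even so, Gdf15 remained the least abundant of the 10 genes in the knockout.

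The receptor and the known inducers of Gdf15 can be set beside it. Gfral, the receptor gene of the hindbrain, was not tested for low counts, and its co-receptor gene Ret rose by 1.45 (SE 0.19, log2), from 0.402 ± 0.0605 CPM in controls to 1.104 ± 0.197 CPM in knockouts. Of 22 targets of p53, 19 rose and 1 fell, with a median log2 fold change of 1.495. Cdkn1a, the cell cycle inhibitor, rose by 3.74 (SE 0.11), from 16.8 ± 2.79 to 224.0 ± 16.6 CPM. Sesn1 fell by 0.59 (SE 0.06). Macrophage markers moved with Gdf15 as well. All 12 rose, their summed level ran from 55.1 to 71.9 CPM in controls and from 212.7 to 254.2 CPM in knockouts, and the defining genes Csf1r and Adgre1 were at 12.8 and 2.84 CPM in controls. The part of these cells in the Gdf15 counts was not tested, nor was any part of p53 in them.

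Per length of exon, the order of the genes was the same in both groups. In controls Phgdh led with 73.3 ± 4.99 CPM per kilobase of exon, followed by Atf4 with 58.0 ± 3.30. Psat1 (28.7 ± 3.43), Shmt2 (28.0 ± 1.98) and Asns (25.6 ± 1.88) overlapped as neighbours, as did Mthfd2 (13.3 ± 1.39) and Atf5 (11.7 ± 0.553). Ddit3 (5.18 ± 0.233), Trib3 (0.643 ± 0.229) and Gdf15 (0.00955 ± 0.00536) followed without overlap. In knockouts the same order held, with the neighbours now separate except for Psat1 (35.4 ± 1.55) and Shmt2 (32.5 ± 1.56). Phgdh stood at 76.8 ± 4.36 and Atf4 at 49.4 ± 2.27 CPM per kilobase (SD, n = 5 in each group).

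**Figure D3:**
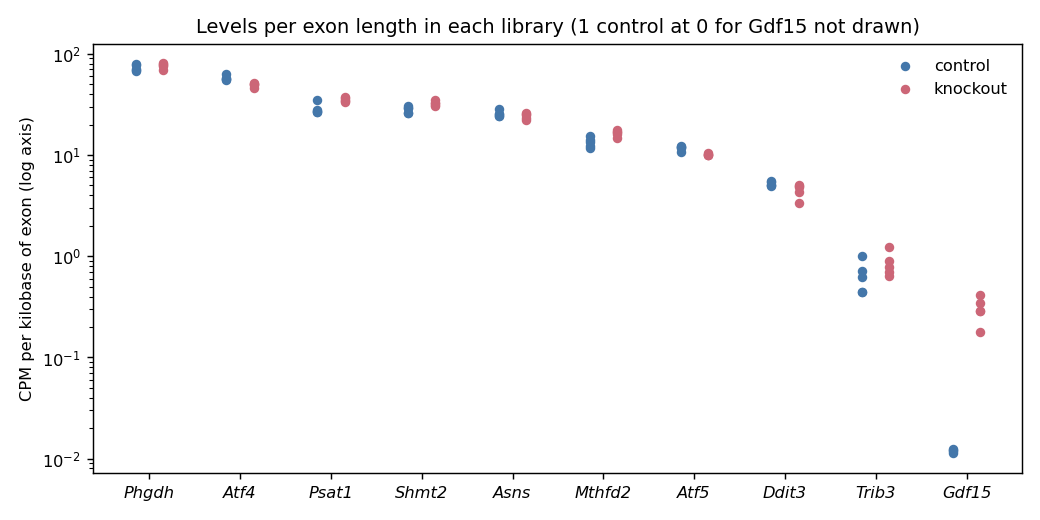
CPM per kilobase of exon (y axis, log scale) for each gene (x axis, in the order of the control means), 1 point per library, controls blue and knockouts red. The serine genes and Atf4 lie between about 10 and 100, and Gdf15 lies lowest in both groups; the control at 0 is not drawn.

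The promoters were compared because CXXC1 binds CpG and ATF4 binds a C/EBP-ATF response element. Of the RefSeq promoter windows (GRCm38.p6), 13 matched the 10 genes, and the 250 bases before each start were read. The windows of Gdf15, Shmt2 and Atf4 are shown, with each CG in capitals, since they stand for the gene with the largest rise, an enzyme gene that rose and the factor gene that fell.
Gdf15, chr8:70632457-70632706, minus strand: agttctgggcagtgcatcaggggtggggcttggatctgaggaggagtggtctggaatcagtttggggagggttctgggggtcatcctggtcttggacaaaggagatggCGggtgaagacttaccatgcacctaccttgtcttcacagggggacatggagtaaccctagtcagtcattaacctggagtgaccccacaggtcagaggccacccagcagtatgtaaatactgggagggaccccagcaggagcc
Shmt2, chr10:127522445-127522694, minus strand: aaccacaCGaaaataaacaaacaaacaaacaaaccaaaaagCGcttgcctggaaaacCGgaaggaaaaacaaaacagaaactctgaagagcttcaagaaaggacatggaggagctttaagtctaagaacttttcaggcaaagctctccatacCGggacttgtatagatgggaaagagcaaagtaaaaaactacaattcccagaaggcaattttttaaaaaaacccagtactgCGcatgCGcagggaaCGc
Atf4, chr15:80254934-80255183, plus strand: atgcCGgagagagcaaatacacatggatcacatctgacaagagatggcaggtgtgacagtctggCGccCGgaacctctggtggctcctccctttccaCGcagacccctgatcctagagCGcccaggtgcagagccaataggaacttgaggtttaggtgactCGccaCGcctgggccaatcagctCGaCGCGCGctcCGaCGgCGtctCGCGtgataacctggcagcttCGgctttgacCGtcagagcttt
This Gdf15 window held 1 CG, Shmt2 held 7 and Atf4 18, where the median over 32851 windows was 6. A CG count of 1 or fewer was found in 18.8% of all windows and a count of 16 or more in 25.4%. Among the other genes the counts were 7 for Phgdh and Mthfd2, 16 for Trib3 and Asns and 20 for Ddit3. The second Gdf15 window, which lies within the gene, held 6, the windows of Atf5 held 26 and 7, and those of Psat1 held 16 and 24. Of the genes that rose, the windows of Gdf15 thus held 1 and 6, those of Shmt2 and Mthfd2 7 each, and those of Psat1 16 and 24. Phgdh, which was not called, also held 7. Any relation of CG count to the change of a gene was not tested.

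The core letters of the response element, TGATGNAA on either strand, were found in 1 of the 10 genes, Asns, beside 3.91% of all 27025 genes with a window. The match lies 16 to 23 bases before the RefSeq start of Asns, in bases that the GENCODE annotation includes in an exon of Asns, and is shown in capitals.
Asns, chr6:7693214-7693243, minus strand: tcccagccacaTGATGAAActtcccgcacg
Of the 10 genes, Gdf15 alone held the variant TGATGCA, 232 to 238 bases before the start on the opposite strand, beside 3.1% of all genes. The shorter motif TGACG was found in Atf4, Asns and Trib3, beside 19.8% of all genes. These letters can lie elsewhere than in these windows, and a match is not a measured site.

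Genes of the wider response are given from lists, and genes named in them without a call were chosen after their values were seen. Each list count is to be set beside the share over all genes tested, 18.1% called higher and 17.1% lower. Of 34 tested genes that ATF4 is known to induce, 15 rose and 6 fell, with a median log2 fold change of 0.17, where the median over all genes was -0.001. The list holds 3 genes that are also in the p53 list, Sesn2, Bbc3 and Pmaip1, and without them 12 of 31 rose, 6 fell and the median was 0.15. The largest rises were in Sesn2, an inhibitor of mTORC1 (2.98, SE 0.07), and Bbc3, a death gene (2.32, SE 0.12). Eif4ebp1, a repressor of translation, rose by 0.81 (SE 0.06) and Pmaip1, also a death gene, by 1.12 (SE 0.10). Amino acid carriers went both ways: Slc7a5 (0.74, SE 0.12) and Slc7a1 (0.62, SE 0.10), chosen as examples after their values were seen, rose, while Slc38a2, a carrier of neutral amino acids, fell from 362.7 ± 13.3 to 256.8 ± 7.27 CPM (-0.50, SE 0.04). Gpt2, a transaminase, fell by 0.39 (SE 0.07) and Cebpg, the usual partner of ATF4, by 0.21 (SE 0.04). Chac1, which degrades glutathione, fell from 0.414 ± 0.0955 to 0.202 ± 0.0773 CPM (-1.05, SE 0.31, adjusted p = 0.0198). That call was lost without control 2 (-0.93) or knockout 5 (-0.95), without litter A (-0.92) and with a block by replicate number (-1.06). Slc7a11 and Cth, of cystine uptake and cysteine synthesis, had log2 fold changes of 0.01 and 0.02 (adjusted p = 0.944 and 0.886). Without knockout 5 the count of genes that fell was 3.

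**Figure D4:**
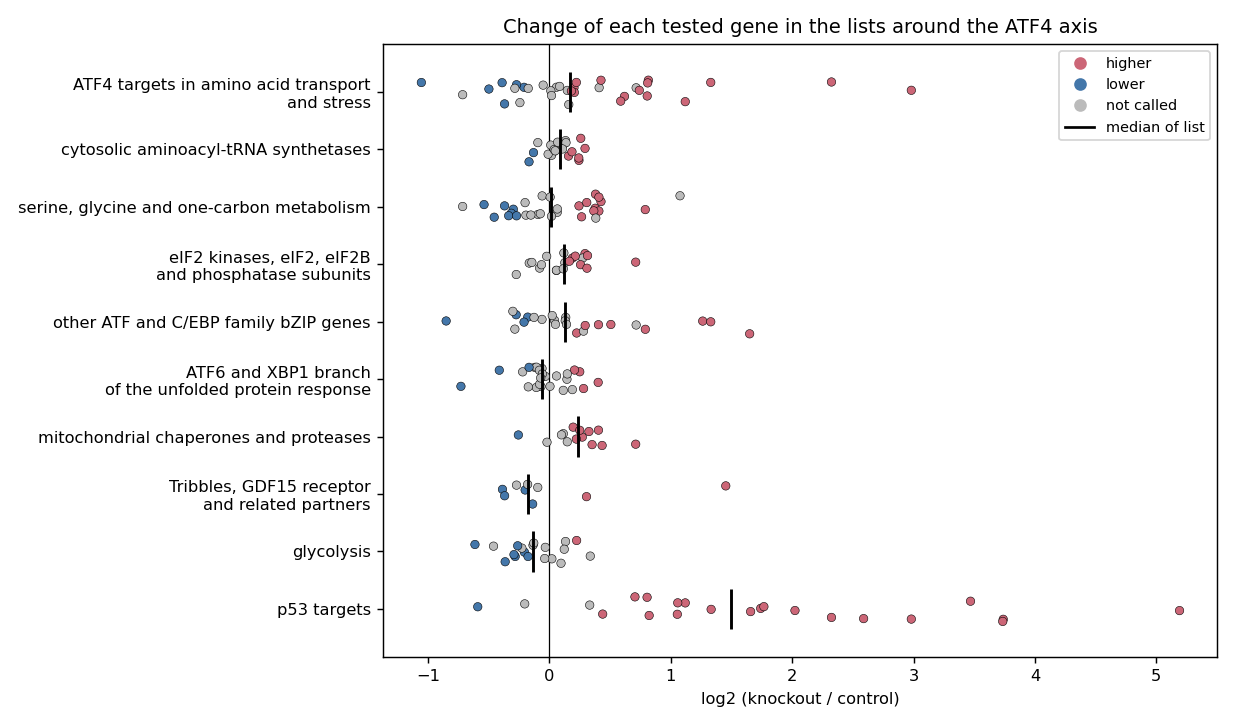
Log2 fold change of knockout over control (x axis) for every tested gene of 10 lists (y axis); red points rose, blue points fell, grey points did not pass an adjusted p of 0.05, and black bars are list medians. The medians lie between -0.18 and 0.24, except for the p53 targets at 1.495.

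Serine, glycine and one-carbon genes outside the 10 moved in both directions. Of 30 tested, 10 rose and 7 fell, with a median of 0.01. Psph, the last enzyme of serine synthesis and named after its values were seen, went from 12.8 ± 1.26 to 15.4 ± 1.47 CPM (0.27, SE 0.09, adjusted p = 0.0387). This call was lost in 12 of 22 alternatives, among them the blocks by number (adjusted p = 0.0861) and by litter (0.0617), no litter A (0.0811), and leaving out control 1 or 3 or knockout 1, 3, 4 or 5 (0.22 to 0.26). Mthfd1, the cytosolic folate enzyme, rose from 114.7 ± 13.0 to 198.4 ± 7.01 CPM (0.79, SE 0.07), and Gart of purine synthesis rose by 0.41 (SE 0.06), as did Gcsh of the glycine cleavage system (0.41, SE 0.06). Mtrr, which reactivates methionine synthase, rose by 0.37 (SE 0.06), and Shmt1, the cytosolic form of Shmt2 and named after its values were seen, by 0.38 (SE 0.06). Mthfd2l, the close relative of Mthfd2, fell from 30.3 ± 0.728 to 22.2 ± 1.11 CPM (-0.45, SE 0.05). Tyms, of thymidylate synthesis, fell by 0.31 (SE 0.05) and Srr, the serine racemase gene, by 0.54 (SE 0.12), a call lost without litter A (adjusted p = 0.103). Without control 5, knockout 2, knockout 3 or knockout 5, 4 genes of the list fell in place of 7. Of 19 genes listed under glycolysis, 7 fell and 1 rose, with a median of -0.13. Gapdh fell by 0.36 (SE 0.05), Pfkp by 0.61 (SE 0.11), Ldhb by 0.26 (SE 0.05) and Pfkm by 0.21 (SE 0.04), and Pgam1 rose by 0.22 (SE 0.06), a call lost without litter A (adjusted p = 0.116). Without control 4 or knockout 2, 2 genes rose.

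The aminoacyl-tRNA synthetase genes charge tRNA with amino acids, and ATF4 is known to induce many of them. Of 20 cytosolic ones, 6 rose, 2 fell and 12 did not pass, with a median of 0.09. Dars rose by 0.29 (SE 0.06), Cars by 0.26 (SE 0.06), Farsa by 0.24 (SE 0.04) and Wars by 0.24 (SE 0.06). Farsa and Wars lost their calls without litter A (adjusted p = 0.0524 and 0.116), as did Qars and Eprs (0.25 and 0.253). Qars (-0.13, SE 0.04) and Eprs (-0.17, SE 0.06) fell by margins that single libraries decided. Qars lost its call without control 1, knockout 1 or knockout 4 (-0.12 to -0.11), and Eprs without control 1, 2 or 5 or knockout 2, 4 or 5 (-0.17 to -0.13). The known ATF4 targets Aars, Nars and Sars had log2 fold changes of -0.09, -0.01 and 0.04 (adjusted p = 0.275, 0.88 and 0.641). These 3 were chosen as examples after their values were seen.

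The list of 20 genes upstream of ATF4 held eIF2, its kinases, its exchange factor, its phosphatase and partner genes such as Oma1. Of these 20 genes, 8 rose, Oma1 and other partner genes among them, and 0 fell, with a median of 0.12, by edgeR's adjusted p. DESeq2 and limma on the deposited normalized values called 1 of them lower, and 1 of 20 had a lower level at an unadjusted p under 0.05. None of the kinase genes passed, with log2 fold changes of -0.08 for Eif2ak1, -0.06 for Eif2ak2, -0.27 for Eif2ak3 and -0.17 for Eif2ak4 (adjusted p = 0.238, 0.494, 0.2996 and 0.0517). Oma1, the mitochondrial protease that signals stress through DELE1 (0.71, SE 0.08), Ppp1r15b, the constitutive eIF2 phosphatase subunit (0.26, SE 0.04), Eif2b2 (0.31, SE 0.06) and Eif2s1, the subunit that is phosphorylated (0.29, SE 0.06), rose. Ppp1r15a, the phosphatase subunit that ATF4 induces, was at 17.5 ± 1.68 and 18.2 ± 0.857 CPM (adjusted p = 0.593). Without knockout 3 or knockout 4, 5 genes of the list rose, and without control 3 or knockout 2, 1 gene fell.

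Of 14 mitochondrial chaperone and protease genes 9 rose and 1 fell, with a median of 0.24. Dnaja3 rose by 0.40 (SE 0.05), Htra2 by 0.35 (SE 0.05) and Hspa9, the mitochondrial HSP70, by 0.33 (SE 0.05), and Yme1l1 fell by 0.26 (SE 0.06), a call lost without litter A (adjusted p = 0.0562). In the ATF6 and XBP1 branch of the unfolded protein response, 4 of 25 rose, 3 fell and 18 did not pass, with a median of -0.06. Both counts lay below the share over all genes tested, 18.1% called higher and 17.1% lower. Hspa5, the main chaperone of the endoplasmic reticulum, was at 866.9 ± 90.2 and 804.7 ± 63.2 CPM (adjusted p = 0.311). Sdf2l1 (0.40, SE 0.08), Hyou1 (0.21, SE 0.04), Creld2 (0.28, SE 0.08) and Dnajb11 (0.25, SE 0.07) rose, and Xbp1 fell by 0.41 (SE 0.07), Derl1 by 0.17 (SE 0.04) and Derl3 by 0.73 (SE 0.18). Without litter A none of these 4 rises was called (adjusted p = 0.0678 for Sdf2l1, 0.083 for Hyou1, 0.142 for Creld2 and 0.183 for Dnajb11), and the calls of Derl1 (0.0846) and Derl3 (0.0524) were lost as well. Creld2 and Dnajb11 also lost theirs without the libraries with high Xist (0.0505 and 0.0958), and Dnajb11 without control 2 (0.23). The number that fell was 6 without control 3 and 5 without knockout 5.

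Among 24 other ATF and C/EBP family genes that were tested, 8 rose and 4 fell, with a median of 0.13. Cebpb, a partner of ATF4 (1.71 ± 0.184 to 4.30 ± 0.428 CPM), Nfe2l2 of the oxidative stress response (0.51, SE 0.05), Cebpa (0.79, SE 0.10) and Creb3l1 (1.65, SE 0.22) rose. Creb3l2, a factor of the cartilage secretory pathway, fell from 113.3 ± 17.9 to 62.9 ± 4.63 CPM, Creb1 fell by 0.27 (SE 0.07) and Atf2 by 0.18 (SE 0.06). Atf2 lost its call without control 1, 3 or 4 or knockout 2, 3 or 4 (-0.17 to -0.15), and without litter A neither Atf2 nor Creb1 was called (adjusted p = 0.0942 and 0.113). Atf3, a further early factor of the response, was at 1.52 ± 0.507 and 2.49 ± 0.832 CPM (0.72, adjusted p = 0.0747). Of 9 tested Tribbles and partner genes, 2 rose and 4 fell, with a median of -0.18, beside 18.1% and 17.1% of all genes tested. Trib2 fell by 0.39 (SE 0.05), Keap1 by 0.37 (SE 0.10), Trib1 by 0.20 (SE 0.07) and Cop1 by 0.14 (SE 0.05), and Egln3 rose by 0.31 (SE 0.11). Without litter A the calls of Keap1, Cop1 and Egln3 were lost (adjusted p = 0.0652, 0.251 and 0.249). Leaving out single libraries ended the calls of Trib1 (-0.21 to -0.16), Cop1 (-0.14 to -0.12) and Egln3 (0.27 to 0.32) in 8 of 10 cases each. With a block by replicate number Trib1 (-0.20) and, of the synthetases, Eprs (-0.17) were not called either. Among the fits that left out a single library, Trib1 kept its call only without control 1 or knockout 3. In those fits Cop1 kept its call only without control 3 or knockout 5, and Egln3 only without control 5 or knockout 1.

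The genes whose levels varied most like those of Atf4, Trib3 and Phgdh were found from log2 CPM after subtracting each group's mean, over the 10 libraries and among 10974 genes with at least 5 CPM. For Atf4 they were Nptn (Pearson r 0.943), Hebp1 (0.934) and the metallothionein gene Mt2 (0.93). For Trib3 they were Tnks1bp1 (0.966), Disp1 (0.959) and Zcchc24 (0.943), and for Phgdh Cd2bp2 (0.967), Fads2 (0.956) and Gas8 (0.953). These are the highest values among many genes over few libraries, which share depth and scaling factors, and no test is attached. Between the groups, Mt2 rose by 0.92 (SE 0.13) and Nptn by 0.16 (SE 0.04), where Atf4 fell, and Hebp1 was not called (0.37, adjusted p = 0.0988).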

How the data were processed

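Total RNA was sequenced in 5 control and 5 knockout libraries, grouped by sample title. The submitters' processing notes name mm10, Salmon 0.8.2, DESeq2 1.16.1 and R 3.4.1 without roles, and summing to genes and strand use are not described in the sources used here. The deposited values were estimated counts per Ensembl gene, rounded here. A second table of the authors, called FPKM, holds a signal equal to these counts over a library's own factor (0.75 to 1.2; 100% of values whole within 0.01 after multiplication), used only as an alternative with a pseudocount of 1. Genes were filtered with filterByExpr (minimum count 10, total 15), normalised by TMM and fitted in edgeR 4.0.16 (quasi-likelihood, R 4.3.3) without covariates, with Benjamini-Hochberg adjustment over 20562 genes. CPM uses TMM-scaled library sizes, and log2 CPM a prior count of 2. SE is the log2 fold change over the root of F. DESeq2 1.42.0 and limma 3.58.1 served as alternatives.

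The biological coefficient of variation was 16.4%. Within groups, chi-square over its degrees of freedom was 15.89 to 44.61 for library pairs, and no duplicate was found. The interval of the Gdf15 ratio and the floors cover counting error only, as reads lack molecular identifiers. The Phgdh interval comes from the edgeR SE, which includes variation between libraries. The labels tie the libraries by litter: numbers 3, 4 and 5 share litters B, C and D, and numbers 1 and 2 share litter A. Deviations from the group means correlated by -0.04 to 0.20 between control and knockout libraries of 1 litter. Symbols, coordinates and exon lengths came from GENCODE M21 (GRCm38, as mm10), and promoters from RefSeq. Members, lists and tests were chosen with earlier results of these data known. Named genes are the 10 members, up to 4 genes per list and direction with the smallest adjusted p, the 3 most alike genes for Atf4, Trib3 and Phgdh, and others said to be chosen later. The values of 1 gene under this rule are not reported here.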

Additional observations from a re-analysis of the deposited data

Results flagged for a closer look

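In groups of 5 libraries, a single library far from the other 4 was looked for in each of the 10 genes and both groups, 20 groups in all, of which chance flags about 1 in 20. Control 4, of litter C, was flagged for Psat1, at 147.8 CPM where the other controls lay between 114.0 and 118.2 CPM, and for Asns, at 78.8 CPM against 65.7 to 69.5 CPM. Control 3 was flagged for Gdf15, with 0 CPM where the other controls held 1 count each (0.0209 to 0.0232 CPM), a difference of 1 count.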

How the results depend on the processing

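Over 22 alternatives the 10 genes kept their direction, and calls were lost only for Psat1 without litter A (0.30) and for Shmt2 without litter A (0.16) and without the libraries with high Xist (0.16). Without litter A, 2 of the 10 genes were called higher in place of 4. Without litter A each group has 3 libraries, and the cause of the lost calls was not tested. With a replicate block by number or litter, Atf4 was at -0.23 and -0.23, Psat1 at 0.31 and 0.31 and Gdf15 at 4.79 and 4.78, and the block changed no call of the 10 genes. Scaling by library size only called 4492 of all genes higher and 2734 lower, against 3719 and 3526 with TMM, and without litter A 2002 and 2021. With the longest transcript as length, control levels per kilobase were 67.8 for Atf4, 12.9 for Atf5, 9.15 for Ddit3, 34.7 for Asns, 46.6 for Psat1, 96.3 for Phgdh, 38.0 for Shmt2 and 22.3 for Mthfd2. Of the 59 listed genes under the naming rule, 39 kept their call in every alternative that gave a value, and 19 lost it without litter A. List counts moved by more than 1.5 times as follows. Synthetases: 2 rose without litter A, 0 fell with library size only, no filter, no litter A, controls without Cre or no high Xist, and 1 fell with a block by number or a somite term (single libraries left out: 0 to 2). One-carbon genes: 4 fell with library size only and without litter A (single libraries: 4 to 7). ATF4 targets: single libraries gave 3 to 7 that fell. The eIF2 list: 4 rose without litter A and 5 without high Xist (single libraries: 5 to 8), and 1 fell with DESeq2 and limma (single libraries: 0 to 1). Other ATF genes: 5 rose without litter A. ATF6 and XBP1 genes: 7 rose with library size only, 0 without litter A and 2 without high Xist, and 1 fell without litter A (single libraries: 3 to 6). Mitochondrial proteins: 0 fell without litter A. Tribbles and partners: 1 rose with no filter, a somite term, no litter A or no high Xist, and 2 fell with library size only, upper quartile factors, no filter or no litter A (single libraries: 1 to 2 and 2 to 5). Glycolysis: 3 rose with library size only and upper quartile factors, 2 with DESeq2 or either block, 0 without litter A, where 4 fell (single libraries: 1 to 2). The shorter motif TGACG was in 3 of the 10 genes. Depth limits Gdf15 in controls.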
